A study of Mus musculus with 56 samples.

Results

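Of the H2A.Z peaks that were lower after doxycycline, 394 lay in L1Md_A elements, and these are described here. They were chosen by the authors' list of lower H2A.Z, keeping peaks placed in an intron or in intergenic DNA whose detailed annotation names an L1Md_A element. Which of these peaks stand just inside or outside the authors' threshold is not given by the files. They made up 394 of 9077 lower peaks and 394 of 5193 lower peaks in introns and intergenic DNA. Lower peaks as a whole were 14.8% of the 61420 peaks of the deposited set. No lower peak whose detailed annotation names L1Md_A was placed outside introns and intergenic DNA. Whether that annotation names elements at exons or gene starts was not tested, so this is not a finding on where the elements lie. The authors' list of 318 higher peaks, 0.518% of the set, held 0 peaks in L1Md_A, which allows a share of up to 0.943% of that list. Peaks that neither list holds carry no repeat annotation, so the share of all L1Md_A peaks that is lower is unknown. Because the list of lower peaks chose the members, that they are lower is not a result here.

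L1 elements are the autonomous retrotransposons of mammals. A full-length copy has its own promoter at the 5′ end and encodes an RNA-binding protein and a protein with endonuclease and reverse transcriptase activity. L1Md_A is one of the young mouse subfamilies, whose promoter is a row of repeated units called monomers, and some of its copies can still move. In embryonic stem cells such elements are held down by DNA methylation and by histone H3 lysine 9 methylation. H2A.Z replaces histone H2A in nucleosomes, chiefly beside gene starts and at enhancers. R-loops contain RNA paired with DNA, and RNase H1 cuts the RNA in such pairs.

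CUT&Tag, in which an antibody guides a transposase to chromatin so that tagged DNA marks where a protein lies, was done in a mouse embryonic stem cell line, RHKI(E14Tg2a), with an HA-Rnaseh1 knock-in. The H2A.Z libraries were 4 from cells given doxycycline at 500 ng/ml for 48 hours and 4 from control cells. All cells, doxycycline and control alike, carried the knock-in and grew in 2i/LIF medium, with FBS at 2% and the inhibitors CHIR-99021 at 3 µM and PD0325901 at 1 µM. The sample labels name no doxycycline group without the knock-in, so an effect of doxycycline itself cannot be told apart from that of Rnaseh1. The other 48 of the 56 libraries are not analysed here.

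The data are peak positions and annotation. They hold neither a fold change nor a p-value, and nothing for the separate libraries, so depth, the spread between replicates and the size of the change are unknown. Lower is read as doxycycline against control from the name of the list. Peaks are not replicates, so no test was made: shares are given with 95% exact Clopper-Pearson intervals and medians with 95% order-statistic intervals, which cover the counting of peaks only. No expression value was analysed to check the stem cell label against marker genes. Coordinates are those of the C57BL/6J genome GRCm38, while E14Tg2a comes from another inbred strain, and which of these copies the cells carry was not tested. The detailed annotation names the element at a peak but gives no strand, copy length or place within the copy, and how reads shared between copies were placed is not given in the sources used here.

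Reference sequence was at hand only for windows around gene starts. Of 32851 such windows from RefSeq on GRCm38.p6, 1 reached into an L1Md_A peak, and it is shown as the only window that does. It belongs to the lncRNA gene Gm33249 on the plus strand, at chr11:71384910-71385209, and the peak lies at chr11:71383741-71384986, a width of 1246 base pairs. The first 77 bases, in capitals, are inside the peak; the authors assigned the peak to Nlrp1c-ps, whose TSS (transcription start site) is 99.1 kb away.
Gm33249: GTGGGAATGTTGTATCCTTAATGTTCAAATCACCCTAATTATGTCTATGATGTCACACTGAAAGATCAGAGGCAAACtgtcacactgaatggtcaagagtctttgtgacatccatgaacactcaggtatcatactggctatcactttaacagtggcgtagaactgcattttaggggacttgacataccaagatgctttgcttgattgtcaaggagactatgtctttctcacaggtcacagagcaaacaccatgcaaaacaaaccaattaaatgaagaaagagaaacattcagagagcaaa
The 77 bases are 37.7% G or C and hold 0 CpG dinucleotides. They are the edge of the peak, and whether they belong to the element is not given by the annotation.

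The peaks were mostly narrow, with many at the minimum width and 22.1% over 1 kb. The narrowest were 501 base pairs wide, the minimum of the whole set, the median was 754 (interval 683 to 770) and the widest was 2996. A width of exactly 501 base pairs was held by 120 of the 394 (30.5%, 25.9 to 35.3%). Between 601 and 1000 base pairs there were 182, between 1001 and 1500 there were 79, and above 2000 there were 2.

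Lower peaks in L1Md_T, another young subfamily with a different monomer, had nearly the same widths. Their median was 757 base pairs (711 to 770), and 28.0% were of the minimum width (24.0 to 32.3%). Lower intron and intergenic peaks outside L1Md elements were wider, with a median of 1012 base pairs (980 to 1026) and 17.5% at the minimum. Unchanged peaks, which neither list holds, had a median of 967 base pairs and 15.4% at the minimum. Above 2 kb there were 0.508% of the L1Md_A peaks (0.0615 to 1.82%) against 17.6% of the lower intron and intergenic peaks outside L1Md and 20.8% of the unchanged peaks. L1Md_T likewise held 0 of 475 above 2 kb, which allows up to 0.632%.

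**Figure D1:**
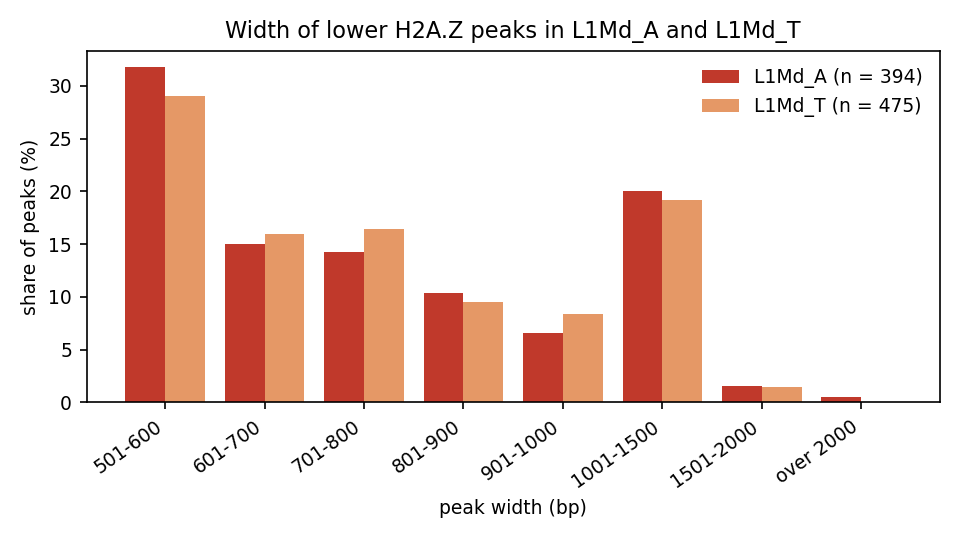
Width of lower H2A.Z peaks in L1Md_A (n = 394) and L1Md_T (n = 475); bars give the share of peaks of each subfamily in percent per width class in base pairs, the last 3 classes being wider than the others. The class from 501 base pairs is the fullest in both, with 31.7% of the L1Md_A and 29.1% of the L1Md_T peaks.

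The 10 widest L1Md_A peaks were all intergenic. The widest, 2996 base pairs at chr1:85220682-85223677, was assigned to Gm7609, an unnamed gene model, and lay 22.6 kb from its TSS. The next, 2413 base pairs at chr6:41879083-41881495, was assigned to Sval2, a gene of the seminal vesicle antigen family. After these came a peak of 1624 base pairs assigned to Fat3, an atypical cadherin, and one of 1606 assigned to Atoh1, a neural basic helix-loop-helix factor. The remaining 6 measured 1492 to 1591 base pairs and were assigned to the ephrin receptor gene Epha6, to Ghitm, to the immune receptor gene Cd226, to Cpxcr1, to the paired-box gene Pax1 and to 4930553E22Rik. The distances of these 10 from their assigned TSS ran up to 921 kb.

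Most of the peaks were intergenic. The authors' annotation placed 320 in intergenic DNA and 74 in introns, an intron share of 18.8% (15.0 to 23.0%). For L1Md_T the intron share was 17.9% (14.6 to 21.6%), and for lower intron and intergenic peaks outside L1Md it was 55.5% (54.0 to 57.0%). By the gene table of GRCm38.p6, which has more gene models, 105 of the 394 centres lay inside a gene (26.6%, 22.3 to 31.3%), and 68 inside a protein-coding gene (17.3%). Inside any gene of that table lay 22.9% of the L1Md_T peaks and 69.5% of the lower intron and intergenic peaks outside L1Md. Of the unchanged peaks 50.8% lay inside any gene. The unchanged peaks were not limited to introns and intergenic DNA as the L1Md_A peaks were, so that last share is not a matched contrast.

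The 74 intron peaks lay in 69 different genes, 62 of them in transcripts of protein-coding genes and 12 in lncRNAs. Their host genes were long: counted once per peak, the median host length was 354 kb (232 to 463 kb), and 57 of 74 hosts were over 100 kb (77.0%, 65.8 to 86.0%). Hosts of L1Md_T intron peaks had a median of 317 kb (221 to 385 kb). Hosts of other lower intron peaks outside L1Md had a median of 41.6 kb (37.9 to 45.1 kb), with 26.8% over 100 kb. The length of intron DNA or of L1Md_A sequence in each gene was not matched. The first intron held 19 of the 74 (25.7%, 16.2 to 37.2%), against 48.1% of the lower intron peaks outside L1Md (46.1 to 50.1%).

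Tafa1, Galntl6, Cntnap2, Agbl4 and A330093E20Rik each held 2 of the intron peaks, and each of the other 64 hosts held 1. In Cntnap2, which encodes a neurexin-like cell adhesion protein of neurons, the peaks of 501 base pairs lay in intron 1 at chr6:45424980-45425480 and in intron 13 at chr6:46596706-46597206. In Agbl4, a carboxypeptidase of tubulin, they were 799 and 631 base pairs wide and lay in introns 2 and 4. In Tafa1, a secreted chemokine-like protein of the brain, they lay in introns 2 and 3, and in Galntl6, of the mucin-type glycosyltransferase family, both lay in intron 4. The lncRNA A330093E20Rik held a pair of 501 base pairs each, 3.97 kb apart in intron 2.

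The longest hosts, chosen after their values were seen, were Cntnap2 (2241 kb), Csmd1 (1643 kb), the presynaptic adhesion gene Nrxn3 (1612 kb), the hair-cell protocadherin gene Pcdh15 (1554 kb) and Agbl4 (1267 kb). Each held 1 or 2 of the peaks. The shortest was Ms4a6d at 18.2 kb, with a peak in intron 3.

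The TSS that the authors' annotation assigned to L1Md_A peaks mostly lay far off. It is not always the nearest gene start, as the peak beside Gm33249 shows. By the gene table of GRCm38.p6, with more gene models, the nearest gene end (a start or an end) lay at a median of 33.9 kb (28.8 to 40.3 kb), and 3 of the peaks had one within 1 kb. The median was 36.3 kb for L1Md_T (31.0 to 43.6 kb) and 4.15 kb for lower intron and intergenic peaks outside L1Md (3.83 to 4.41 kb). The distance to the assigned TSS ran from 2.88 to 1710 kb, with a median of 131 kb (107 to 155 kb) and quartiles of 40.6 and 308 kb. L1Md_T peaks had a median of 124 kb (105 to 147 kb), higher peaks 110 kb (91.5 to 133 kb) and lower intron and intergenic peaks outside L1Md 13.2 kb (12.3 to 14.0 kb). Within 5 kb of the assigned TSS lay 7 of the 394 (1.78%, 0.717 to 3.63%), within 20 kb 54 (13.7%) and within 100 kb 174 (44.2%). Upstream and downstream were nearly balanced, with 187 upstream of the assigned TSS (47.5%, 42.4 to 52.5%), while 36.4% of the lower intron and intergenic peaks outside L1Md were upstream (34.9 to 37.8%). An intron lies downstream of the start of its own gene. The 2 upstream shares were not matched for intron share, which was 18.8% and 55.5%, so they give no separate contrast.

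**Figure D2:**
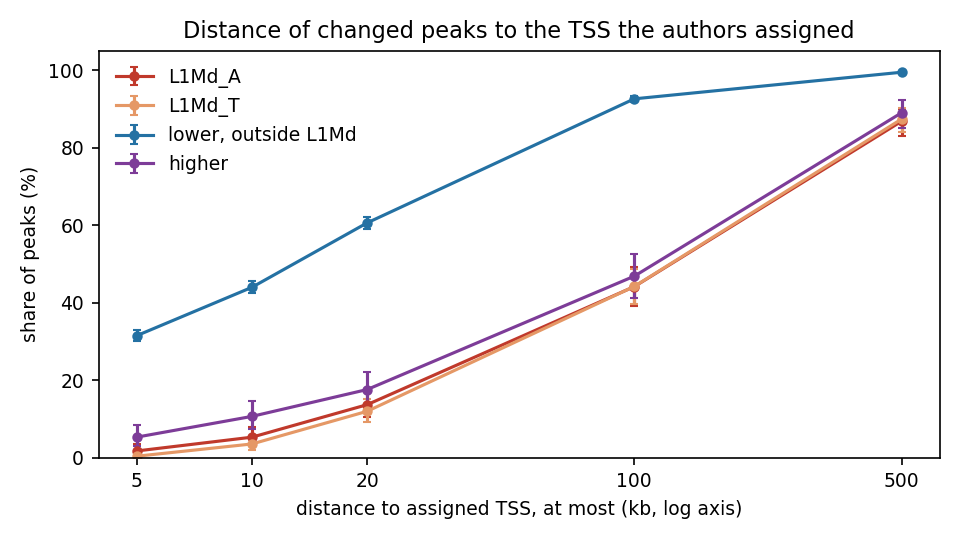
Share of changed peaks, in percent, whose assigned TSS in the authors' annotation is at most the distance on the log axis in kb; points are shares and bars 95% exact binomial intervals. L1Md_A, L1Md_T and higher peaks run close together, with 44.2%, 44.2% and 46.9% within 100 kb, against 92.6% of lower intron and intergenic peaks outside L1Md.

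The 10 peaks closest to their assigned TSS lay 2.88 to 6.33 kb away. The first, 637 base pairs at chr11:49343093-49343729, lay 2877 base pairs downstream of the TSS of the odorant receptor gene Olfr1390. The next was a peak of 501 base pairs upstream (distance to TSS of -3032) of Ano10, of the anoctamin family of channels and scramblases, followed by 1 of 824 base pairs 3637 downstream of Olfr585. A peak of 627 base pairs lay 4456 downstream of the start of Pmch, the precursor of melanin-concentrating hormone, inside intron 9 of 10 of the overlapping gene Parpbp. The others were assigned to Rai2, the pheromone receptor gene Vmn1r30, Dner, a Notch ligand of neurons, Gm4489, the bicarbonate transporter gene Slc4a10 and the chemokine gene Cxcl2. Of these 10 peaks, 5 were of the minimum width.

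At the other end, the 10 farthest peaks lay 1051 to 1710 kb from their assigned TSS. They were assigned to Gm32455, the adhesion receptor gene Adgrl3, 4930474H20Rik, which had 2 of them, the snoRNA gene Snord14d, Gm32810, the cadherin gene Cdh11, Gm10440, Rprl2 and the neurotrophin receptor gene Ntrk3. No gene of any type came within 100 kb of the centre of 9 of them, and 2 came within 100 kb of the Gm10440 peak.

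Few genes had more than 1 of the peaks. The 393 peaks with an assigned gene named 363 different genes, of which 337 had 1 peak, 23 had 2 and 3 had more. Rprl2, an RNase P RNA-like gene, had 4, at chr3:22730177-22730805, chr3:22734942-22735570, chr3:22954730-22955488 and chr3:23307643-23308401. They lay 479 to 1057 kb from its TSS. The first 2 were both 629 base pairs wide and 4.14 kb apart, and the other 2 were both 759 base pairs wide. Snord14d had 3, of 582, 501 and 691 base pairs at 343, 977 and 1631 kb, and Mgat4c, a glycosyltransferase gene, had 3, of 501, 965 and 501 base pairs at 230, 114 and 58.7 kb. Among the genes with 2 were Auts2, a chromatin regulator of neurons, Epha6, Trps1, Nova1, Pcdh9 and Pcdh15.

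By type, 295 of the peaks were assigned to a protein-coding gene (74.9%, 70.3 to 79.1%), 86 to a noncoding RNA gene (21.8%), 9 to a pseudogene and 3 to a snoRNA gene. Unnamed gene models were assigned in 98 cases (24.9%, 20.7 to 29.4%), against 26.3% for L1Md_T and 11.1% for lower intron and intergenic peaks outside L1Md (10.2 to 12.1%). Odorant receptor genes were assigned in 11 cases (2.79%, 1.40 to 4.94%), against 3.16% for L1Md_T and 0.213% outside L1Md (0.0974 to 0.404%). The closest after Olfr1390 and Olfr585 was the peak 6.54 kb from Olfr1271, and the farthest the one 173 kb from Olfr164. Vomeronasal receptor genes, which encode pheromone receptors, were assigned in 7 cases (1.78%, 0.717 to 3.63%), against 1.68% for L1Md_T and 0.0473% outside L1Md. Of those 7, 1 lay within the gene, in intron 1 of Vmn2r55. Zinc finger genes named Zfp were assigned in 1 case, a peak of 1303 base pairs 17.8 kb from Zfp939, which is 0.254% (0.00643 to 1.41%) against 1.26% for L1Md_T (0.465 to 2.73%) and 1.82% outside L1Md (1.44 to 2.27%).

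The surroundings were poor in genes and in other peaks. Within 100 kb of the centre there were 0 to 20 genes, with a median of 2. Unchanged peaks had a median of 5, and lower intron and intergenic peaks outside L1Md had 7. No gene came within 100 kb of 60 of the 394 (15.2%, 11.8 to 19.2%), against 16.2% of L1Md_T, 0.544% of lower intron and intergenic peaks outside L1Md (0.345 to 0.815%) and 2.65% of unchanged peaks. No protein-coding gene came that near in 193 cases (49.0%, 43.9 to 54.0%), against 48.0% of L1Md_T and 5.20% of lower intron and intergenic peaks outside L1Md. Unchanged peaks outside genes and over 1 kb from a gene end, a set chosen after the data were seen, had a median of 4 genes. No gene came within 100 kb of 6.22% of them, and no protein-coding gene of 26.0%. Higher peaks, none of them in L1Md_A, likewise had a median of 2 genes. For 11.9% of the higher peaks (8.60 to 16.0%) no gene came within 100 kb, and for 41.5% no protein-coding gene.

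The nearest other H2A.Z peak of the set lay 2.51 to 848 kb away, at a median of 32.0 kb (28.4 to 36.2 kb). The median was 36.2 kb for L1Md_T (31.1 to 41.0 kb), 6.27 kb for lower intron and intergenic peaks outside L1Md (6.00 to 6.53 kb) and 7.39 kb for unchanged peaks. Unchanged peaks outside genes and over 1 kb from a gene end, set beside them after the data were seen, had a median of 7.19 kb (7.05 to 7.35 kb). Another peak within 10 kb was found for 63 of the 394 (16.0%, 12.5 to 19.99%), against 65.9% of lower intron and intergenic peaks outside L1Md and 60.5% of unchanged peaks outside genes. No other peak within 50 kb was found for 139 (35.3%, 30.6 to 40.2%), against 4.56% and 9.04%. The most isolated peak, 890 base pairs on chromosome X at 90671319 to 90672208, had its nearest neighbour 848 kb away, and a peak of 643 base pairs on chromosome 11 assigned to Gm12130 had it at 768 kb.

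**Figure D3:**
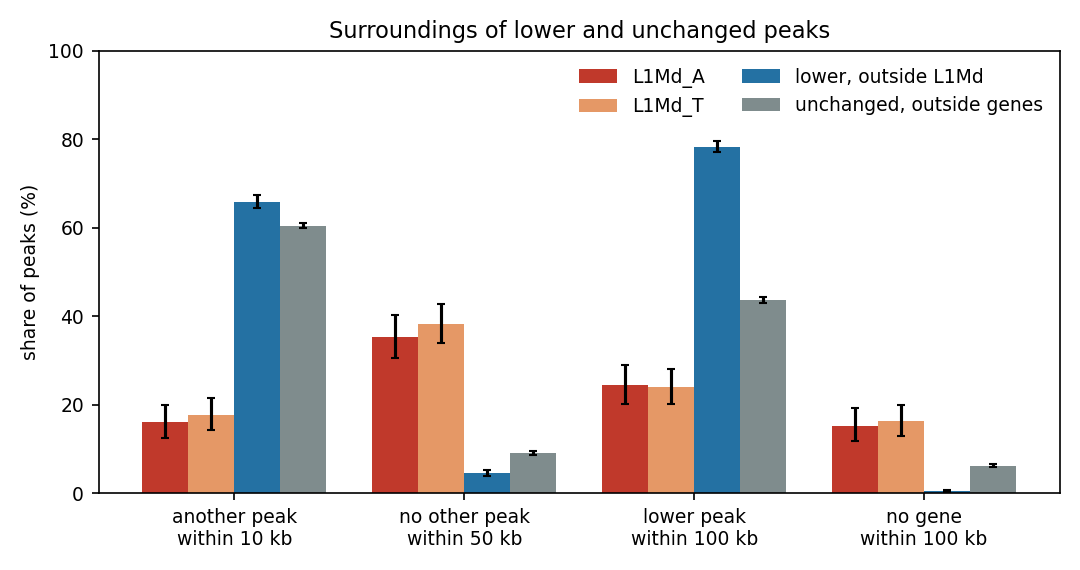
Share of peaks, in percent with 95% exact binomial intervals, that have another peak of the set within 10 kb, no other peak within 50 kb, a lower peak within 100 kb, or no gene within 100 kb. L1Md_A and L1Md_T bars stand side by side at 16.0% and 17.7% for the first measure and 24.4% and 24.0% for the third, where lower intron and intergenic peaks outside L1Md reach 65.9% and 78.3%.

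Peaks around the L1Md_A peaks were lower about as often as those around L1Md_T peaks or around unchanged peaks outside genes. Counting neighbours once for each L1Md_A peak they adjoin, 55 of the 536 peaks within 50 kb were lower (10.3%, 7.82 to 13.1%) and 6 were higher. Around L1Md_T the share was 9.49% (62 of 653), around lower intron and intergenic peaks outside L1Md 30.8%, and around unchanged peaks outside genes 10.8%, with 14.8% of all peaks lower. Of the 55 lower neighbours, 21 were outside L1Md elements. With L1Md neighbours left out, 21 of 502 remained (4.18%, 2.61 to 6.32%), but this share is biased downward, because unchanged peaks carry no repeat annotation and could not be left out likewise. A lower peak of any kind lay within 10 kb of 11 of the 394 (2.79%, 1.40 to 4.94%) and within 100 kb of 96 (24.4%, 20.2 to 28.9%). For lower intron and intergenic peaks outside L1Md the shares were 28.4% and 78.3%. They were 11.4% and 51.0% for the whole set, and 7.75% and 43.7% for unchanged peaks outside genes. Such shares also depend on how many peaks of any kind lie near, which was not matched.

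Gaps between L1Md_A peaks were mostly long, but these peaks are also sparse, at 15.4 per 100 Mb. Whether the gaps differ from those of a random placement was not tested. From an L1Md_A peak to the nearest other, the gap ran from 3.97 kb to 31.0 Mb, with a median of 1606 kb (1370 to 1819 kb). The median gap to the nearest L1Md_T peak was 1230 kb (1020 to 1413 kb). Another L1Md_A peak lay within 100 kb of 8.63% of them (6.05 to 11.85%). For L1Md_T, 8.84% had another L1Md_T peak that near (6.45 to 11.8%). Joined across gaps of up to 100 kb, the 394 peaks formed 360 stretches of 1 peak, 15 of 2 and 1 of 4. The stretch of 4 spanned 203 kb on chromosome 1, from 85020380 to 85223677, with widths of 880, 883, 501 and 2996 base pairs, and held the widest peak of all. Whether the reference holds extra copies of that region was not tested. Of the 5 peaks of the set in that span, 4 were these. It was assigned to Slc16a14, A530032D15Rik and Gm7609. Other close pairs were at Slco6d1, a transporter gene (gap of 29.7 kb), Frk, a tyrosine kinase gene (40.0 kb), Gm8765 (40.2 kb) and Epha6 (41.4 kb).

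The 394 peaks were spread over all 19 autosomes and X. Chromosome X held 43, the most (10.9%, 8.01 to 14.4%), against 11.6% of L1Md_T (8.84 to 14.8%), 2.37% of lower intron and intergenic peaks outside L1Md (1.93 to 2.87%) and 2.41% of the whole set. Chromosome 10 held 35, chromosomes 3 and 6 held 32 each, and together with X they had 142 (36.04%), with 20.03% of the whole set. The fewest were on chromosomes 19 with 5, 17 with 6 and 11 with 8.

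Per 100 Mb between the first and the last H2A.Z peak of a chromosome, the number ran from 6.53 on chromosome 17 and 6.74 on chromosome 11 to 27.5 on chromosomes 10 and 16, with 26.1 on X. Over the 20 chromosomes together it was 15.4. As a share of the lower intron and intergenic peaks of a chromosome, L1Md_A made up 20.3% on X (15.1 to 26.3%), 15.8% on chromosomes 10 (11.2 to 21.2%) and 16 (10.6 to 22.2%), 14.0% on chromosome 3 and 13.9% on chromosome 6. It made up 1.80% on chromosome 11 (0.779 to 3.51%) and 2.47% on chromosome 17 (0.911 to 5.30%). L1Md_T followed a like order per 100 Mb across the 20 chromosomes (Pearson r = 0.746, Spearman rho = 0.768, and 0.695 and 0.747 without X, as a description: the counts share the chromosome, its mappability and the same libraries). The 2 subfamilies were not alike everywhere, since chromosome 16 held 26 L1Md_A and 17 L1Md_T peaks, and chromosome 3 held 32 and 48. How much L1Md_A sequence each chromosome has was not analysed, so the counts cannot be read as a share of the elements.

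**Figure D4:**
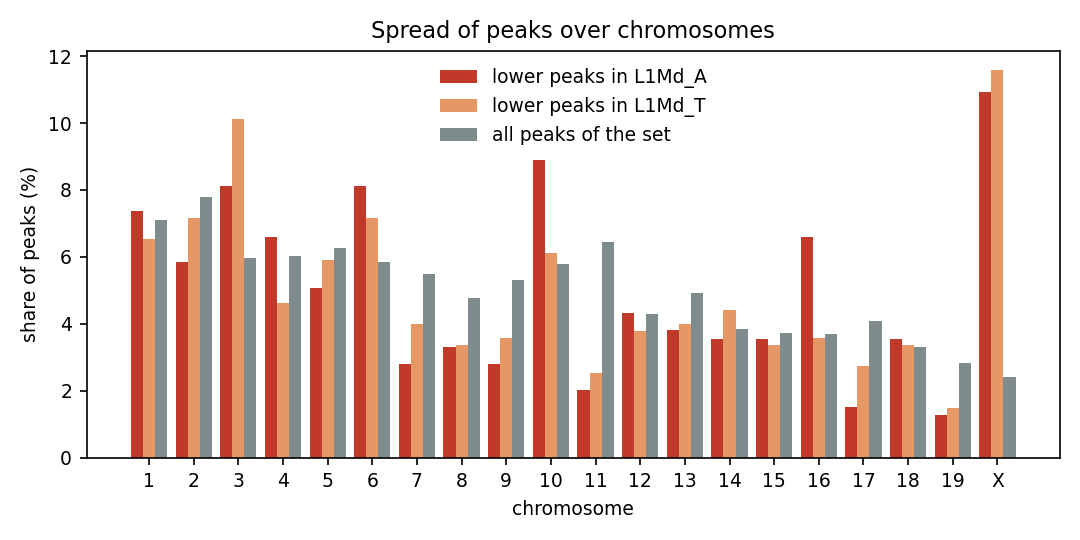
Share of the lower L1Md_A peaks (n = 394), of the lower L1Md_T peaks (n = 475) and of all 61420 peaks of the set, in percent, on each autosome and X. On X the L1Md_A and L1Md_T bars reach 10.9% and 11.6% while all peaks reach 2.41%, and on chromosome 11 they are 2.03% and 2.53% while all peaks reach 6.43%.

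Among themselves the L1Md_A peaks varied in width with place, and in spacing between X and autosomes. Intron peaks had a median width of 626 base pairs (501 to 657) and intergenic ones 764 (751 to 787). Intron and intergenic peaks had the nearest other peak at like medians, 33.6 kb (21.5 to 47.6 kb) and 31.8 kb (27.9 to 36.2 kb). Their median distances to the assigned TSS were 66.9 kb (44.7 to 112 kb) for intron and 147 kb (117 to 168 kb) for intergenic peaks. Peaks on X had a median of 501 (501 to 764) and those on autosomes 759 (696 to 783). The nearest other peak lay at a median of 66.9 kb on X (46.9 to 111 kb) and 30.0 kb on autosomes (26.0 to 33.5 kb). The whole set was also sparser on X, with 1482 peaks over 164 Mb. Chromosome 3, the autosome nearest to X in span, had 3665 over 157 Mb. The spacing on X is therefore not particular to L1Md_A peaks. Peaks with no gene within 100 kb had a median width of 796 base pairs (753 to 897) and the rest 751 (640 to 764). The distance to the assigned TSS was nearly the same for peaks of the minimum width, at a median of 130 kb (82.8 to 173 kb), and for wider peaks, at 131 kb (99.1 to 164 kb).

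Genes that restrain or drive L1 elements were looked up in the same peak lists. Of 74 such genes, 37 had a peak centred within 1 kb of a gene end, and 9 of these had a lower peak, against 27.1% of all genes with such a peak. None of the 37 had a higher peak there. Only 0.518% of all peaks were higher, so this is no finding about these genes. A window of 500 base pairs gave 6 of 27 against 26.2% of all genes with a peak, and 3 kb gave 11 of 47 against 27.3%. Genes for proteins of the Piwi-interacting RNA pathway and of germline silencing, which hold down L1 in the germline, had 4 of 12. These were Pld6, whose peak was 1210 base pairs wide, Asz1 with 799, the helicase gene Ddx4 with 650 and Mael with 626. DNA methylation and TET genes had 2 of 5, Tet3 with 2692 base pairs and the maintenance methyltransferase gene Dnmt1 with 1697. Genes acting on RNA and reverse transcription had 2 of 10, the deoxynucleotide hydrolase gene Samhd1 with 1351 and the RNA helicase gene Upf1 with 626, while Rnaseh1, Rnaseh2a and Trex1 had unchanged peaks. Of the transcription factors, 1 of 3 had a lower peak, Sox11 with 2699 base pairs. Repressors of the HUSH complex and heterochromatin had 0 of 7, with unchanged peaks at Morc2a, Mphosph8, Pphln1, Resf1, Hells, Ehmt1 and Suv39h2, and the share over all 37 was close to that of all genes.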

How the data were processed

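The files were 3 tables of H2A.Z peaks made by the authors, and all 56 libraries were placed in groups by their titles. The submitters' processing notes name the build GRCm38 and the tools deepTools, HOMER, Picard, Bowtie2 and Trimmomatic. HOMER annotatePeaks wrote the lower and higher lists, per the file headers. Not given in the sources used here are how peaks were called, whether replicates were pooled, and what test and threshold made the lists. The peak score the authors deposited is 0 throughout and was not used. Positions and signed distances to the TSS are other values, used as the authors deposited them, with starts counted from 1.

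Every lower or higher peak matched a peak of the set in both coordinates. Gene symbols were read through Entrez IDs from a RefSeq table of GRCm38.p6, which matched 393 of the 394 members. Gaps run between peak edges. The 10 kb and 100 kb windows between peaks are such gaps, while the 50 kb neighbour window and the 100 kb gene window run from the peak centre. Gene ends are gene starts or ends within 1 kb of a centre. Intervals are at the 95% level, and a share of 0 is given the upper limit that 3 counts would make. The window and interval functions were tested on simulated data. The software was SciPy 1.17.1, pandas 2.3.3, numpy 2.4.6 and matplotlib 3.10.9 under Python 3.11.15.

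The members, the gene lists and the comparisons were chosen with earlier results of these data known. Genes were named by rule: those with 3 or more peaks, the 10 widest, closest and farthest peaks, the hosts with most peaks, and up to 4 genes per list with the widest lower peak. Other genes, and the unnamed gene models, were named after their values were seen. Alternatives left out peaks of minimum width, chromosome X or close peaks, and changed windows and gene tables.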

Additional observations from a re-analysis of the deposited data

How the results depend on the processing

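Of 35 alternative values for 10 results, 23 stayed inside the interval of the reported value (for the count of genes, within 1.5 times). Without peaks of the minimum width, the intron share was 14.6% against 18.8%, the median width 859 base pairs against 754, and the share on chromosome X 7.30% against 10.9%. Windows of 5 and 50 kb in place of 10 kb gave 4.82% and 65.0% of L1Md_A peaks with another peak of the set. Windows of 50 and 500 kb in place of 100 kb gave 4.06% and 20.6% with another L1Md_A peak. The median number of genes was 11 within 500 kb and 1 for protein-coding genes alone. The median distance was 33.9 kb to the nearest gene end of the RefSeq table in place of the assigned TSS, and 26.6% of centres lay inside a gene of that table. With L1Md neighbours left out, an alternative chosen after seeing the data, 4.18% of neighbours were lower. The windows and gene tables change what is counted, as does leaving out L1Md neighbours. Leaving out the narrowest peaks raises the median width by construction. It lowers the intron and X shares because peaks of the minimum width were commoner there. Median widths were 501 base pairs on X and 626 in introns, against 764 for intergenic peaks. Why widths differed by place was not tested. Leaving out chromosome X kept each of the 8 results it was run for inside its interval; it was not run for the share on X or for the L1 control genes. With 1 peak per stretch, the share with another L1Md_A peak within 100 kb is 0 by construction and was not computed. No paired analysis was possible because the files give no value per library. Depth and mappability are unknown, so a missing or narrow peak may be a limit of either.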

Other observations

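Widths recurred at a few values. After 501 base pairs, held by 120 L1Md_A peaks, the commonest was 626, held by 11 (2.79%, against 1.24% of all peaks of the set), followed by 627 with 6 and by 628 and 753 with 5 each. In the whole set 501 base pairs was the width of 9590 peaks (15.6%).

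There were 96 lower peaks in the other L1Md subfamilies. Their median width was 660 base pairs (628 to 761), 14.6% lay on chromosome X (8.21 to 23.3%), 14.6% had another peak of the set within 10 kb (8.21 to 23.3%), and 13.5% had no gene within 100 kb (7.41 to 22.0%). Their median distance to the assigned TSS was 97.2 kb. Of their neighbours within 50 kb, 19 of 117 were lower (16.2%, with 10.3% for L1Md_A), and 4.17% of the 96 peaks were wider than 2 kb (1.15 to 10.3%, with 0.508% for L1Md_A).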
